A study of Mus musculus with 3 samples.

Results

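Inhibitory transmission in the cerebellum uses the transmitters GABA and glycine, and 28 genes of their synapses, out of 21757 protein-coding genes on chromosomes 1 to 19, X and Y, were examined for regions pulled down with an antibody against 5-hydroxymethylcytosine (5hmC). The genes were taken by symbol from the GENCODE M39 annotation of GRCm39 (mm39) and cover receptor subunits, the enzymes and transporters that make, load, take up and break down the transmitters, and a scaffold protein. Receptor genes outside this list were not analysed here. In hMeDIP (hydroxymethylated DNA immunoprecipitation), sonicated DNA fragments that carry 5hmC are enriched with the antibody, and nanopore sequencing of the product then reads 5hmC, 5-methylcytosine (5mC) and unmodified C at each CpG directly. The DNA came from the cerebellum of an 8-week-old female mouse of strain C57Bl6Cr with no further treatment. It was immunoprecipitated in 3 reactions, with whole serum antibody in replicate 1 and IgG-purified antibody in replicates 2 and 3. The library names give 1 animal for all replicates, and replicates therefore differ by immunoprecipitation and sequencing, not by animal. Antibody and replicate cannot be told apart, since whole serum was used in 1 reaction.

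Replicate 1 gave 497 peaks, far fewer than the 8546 of replicate 2 and the 5166 of replicate 3. Peaks that overlapped by at least 1 bp were merged across replicates into 13339 regions, and a region was counted for a gene when its midpoint lay in the gene body or within 1 kb upstream, called the gene window here. Protein-coding gene windows held 10729 of these regions, and the 28 genes held 32. Base-calls were available at 29039 CpG sites in replicate 1 (69910 calls), 64388 sites in replicate 2 (104238 calls) and 47104 sites in replicate 3 (75624 calls), and the median site had 1 call in every replicate. The measurements are thus shallow, and the confidence intervals given below cover counting error only, since base-calls of the same DNA fragment are not independent.

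GABA is made from glutamate by the glutamic acid decarboxylases and is loaded into synaptic vesicles by the vesicular inhibitory amino acid transporter, which also loads glycine. It acts on GABAA receptors, which are chloride channels of several subunits, and on GABAB receptors, which act through G proteins and consist of a Gabbr1 and a Gabbr2 subunit. In the cerebellum, Purkinje cells, Golgi cells and molecular layer interneurons are inhibitory, and granule cells, the most numerous neurons, receive inhibition from Golgi cells. 5hmC is made by TET enzymes from 5mC, and is known to be abundant in the gene bodies of neurons. Because whole tissue was used, a modification present in fewer cells and one present at a lower level in each cell cannot be told apart.

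Stretches of 3 genes are printed to show what an enriched region looks like in sequence. They were chosen as the region with a peak in most replicates, then with the most 5hmC calls, of each gene, and lie around the summit of the highest peak. All are on the forward strand of GRCm39, all lie in introns, and CpG dinucleotides are in capitals.
Gabbr2, chr4:46762046-46762345: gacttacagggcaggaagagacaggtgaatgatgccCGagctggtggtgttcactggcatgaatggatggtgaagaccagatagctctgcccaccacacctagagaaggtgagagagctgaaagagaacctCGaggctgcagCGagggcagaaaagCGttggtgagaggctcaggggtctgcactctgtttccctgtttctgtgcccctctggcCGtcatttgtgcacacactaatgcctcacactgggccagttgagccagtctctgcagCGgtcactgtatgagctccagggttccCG
Glra1, chr11:55426338-55426637: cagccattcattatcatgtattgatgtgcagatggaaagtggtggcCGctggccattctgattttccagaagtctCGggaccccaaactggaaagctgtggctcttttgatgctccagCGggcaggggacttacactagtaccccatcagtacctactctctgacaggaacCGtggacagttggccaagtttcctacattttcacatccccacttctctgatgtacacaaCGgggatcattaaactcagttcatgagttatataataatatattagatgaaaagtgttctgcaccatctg
Gabrr2, chr4:33066103-33066402: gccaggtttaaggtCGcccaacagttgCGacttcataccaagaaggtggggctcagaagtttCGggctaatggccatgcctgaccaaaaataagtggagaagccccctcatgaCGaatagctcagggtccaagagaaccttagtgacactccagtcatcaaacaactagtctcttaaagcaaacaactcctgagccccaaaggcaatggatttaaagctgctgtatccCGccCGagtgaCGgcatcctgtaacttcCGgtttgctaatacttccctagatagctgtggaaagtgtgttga

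The stretch of Gabbr2 holds 7 CpGs and had 12 calls in replicate 2, of which 6 were 5hmC, 5 were 5mC and 1 was C. It had 5 calls in replicate 3, of which 3 were 5hmC and 2 were C, and 0 calls in replicate 1. It belongs to the single region in the 28 genes that carried a peak in more than 1 replicate. The stretch of Glra1 holds 5 CpGs, and 5hmC was read there in 1 of 2 calls of replicate 1, 3 of 5 calls of replicate 2 and 0 of 5 calls of replicate 3. The stretch of Gabrr2 holds 8 CpGs and was read mostly as 5mC, with 8 of 10 calls in replicate 3 against 1 of 10 as 5hmC. It had no call in replicates 1 and 2. In these windows the most frequent call was thus 5hmC in Gabbr2, on 17 calls, and 5mC in Gabrr2, on 10 calls, and the 12 calls of Glra1 were split evenly.

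The regions were distributed very unevenly over the 28 genes. Gabbr2 held 25 of 32, or 78.1%, on 7.82% of the summed window length. Gabrb2 and Gabrr2 held 2 each, Glra1, Gabrg1 and Gabrd held 1 each, and the other 22 genes held 0. A share of 21.4% of the 28 genes held at least 1 region, beside 20% of all protein-coding genes, a comparison not matched for length. The 28 genes were longer than most, with a median window of 95.2 kb beside 20.2 kb over all protein-coding genes. Up to 20 kb 1 of 3 of them held a region (9.03% of all genes of that length), and at 20 to 50 kb 1 of 6 (19.6%). At 50 to 100 kb 2 of 6 did (32.9%), and at 100 to 200 kb 0 of 6 (47.2%). From 200 to 500 kb 2 of 5 did (61.5%), and above 500 kb 0 of 2 (66.7%). Per length, the 28 genes held 7.57 regions per Mb (exact Poisson 95% interval 5.18 to 10.7), beside 9.99 per Mb over all protein-coding gene windows (9.80 to 10.2). The 32 regions were fewer than the 42.2 expected from window length and close to the 30.4 expected from CpG content. Without Gabbr2 the other 27 genes held 7 regions in 3.90 Mb, or 1.80 per Mb (0.722 to 3.70), where 38.9 were expected from length and 26 from CpG content. Expected numbers from length use the density of all windows. That density was lower in windows over 500 kb (4.53 per Mb), as of Gabrg3 and Gabrb1. It was also lower on chromosome X (0.509 per Mb), where Gabra3 and Glra2 lie. The classes of shorter windows held 9.60 to 12.4 per Mb. The median number of regions was 0 for the 28 genes and 0 for all protein-coding genes.

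**Figure D1:**
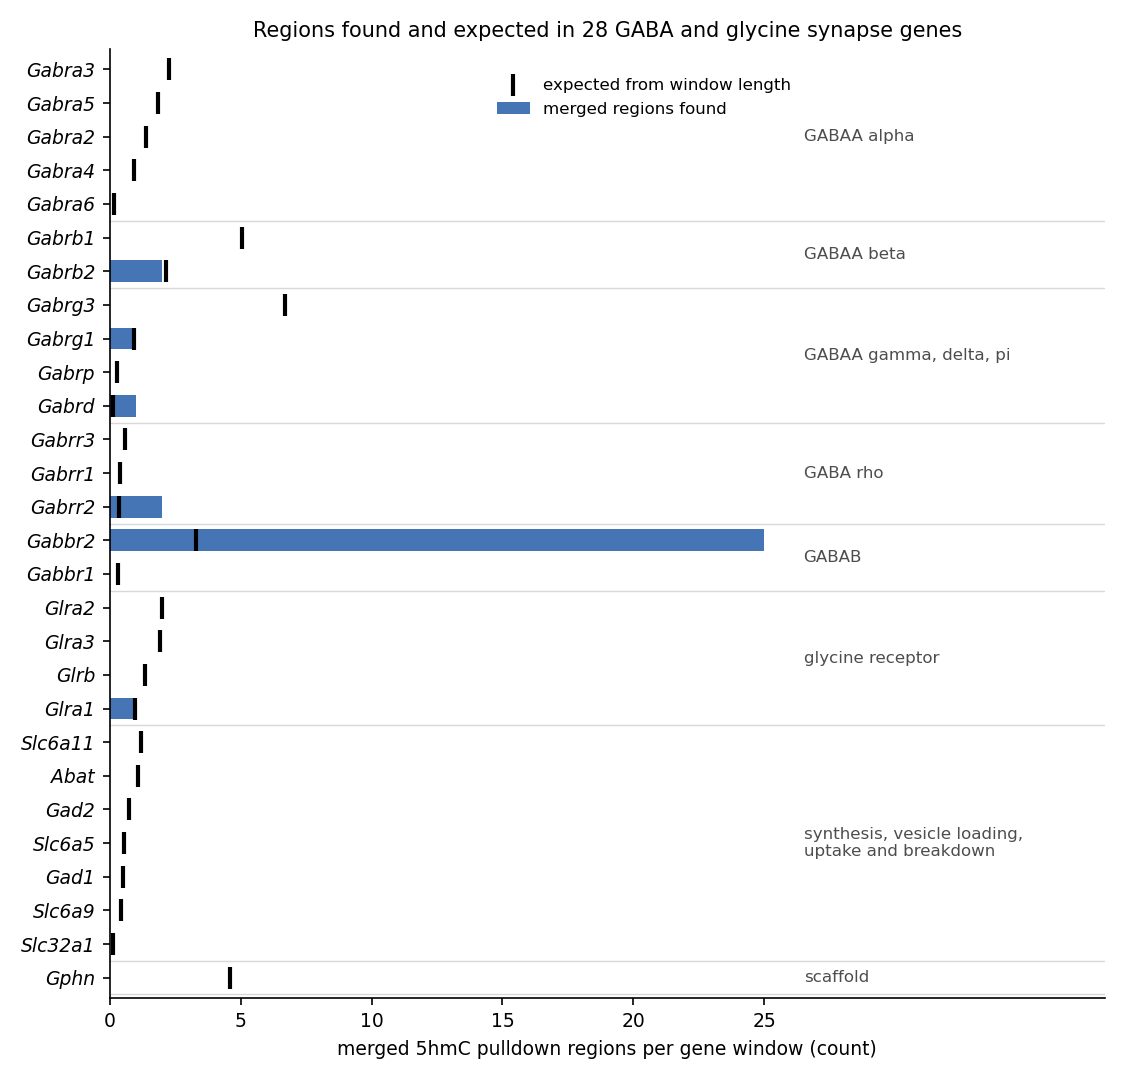
Merged regions found in each of the 28 genes (bars, count) and the number expected from window length (black ticks), with genes grouped by role and ordered by window length. Gabbr2 reached 25 regions where 3.30 were expected, and the next highest genes held 2.

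Each gene was tested against its share of the summed windows with a two-sided exact binomial test, adjusted by Benjamini-Hochberg over all 21757 protein-coding genes. Of the 28 genes, 1 held more regions than expected from its length (3.57%), beside 1.92% of all protein-coding genes, and 0 held fewer, beside 0.239%. The gene with more was Gabbr2. At an unadjusted p under 0.05 in the same exact test, 2 genes held more, Gabbr2 and Gabrr2 (7.14%, beside 5.22% of all protein-coding genes), and 3 held fewer, Gabrg3, Gabrb1 and Gphn (10.7%, beside 0.887%). These 3 genes have the longest windows of the 28, and a short window cannot pass with 0 regions. Even Gabrg3, the longest, reached an adjusted p of only 0.104 in the exact test with 0 regions. A call for fewer was thus out of reach of the 28 genes at these counts. With the expected number taken from CpG content, 3.82 for Gabrg3, 3.10 for Gabrb1 and 2.19 for Gphn, the unadjusted p of the exact test was 0.0384, 0.0838 and 0.291. For Gabrr2, with 0.383 expected from CpG content, the unadjusted p of the exact test was 0.0571. The test treats regions as independent and draws on 1 animal.

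Among the GABAB receptor genes, Gabbr2 (ENSMUSG00000039809.12) encodes the subunit that couples the receptor to G proteins. It lies on the reverse strand of chromosome 4 (GRCm39, chr4:46662244-46991971). Peaks were present at 1 region of the gene in replicate 1, at 16 in replicate 2 and at 9 in replicate 3. The numbers expected from length were 0.126, 2.11 and 1.28, so each replicate had more peaks in the gene than expected. Merged, the 25 regions compare with 3.30 expected, a ratio of 7.57 (two-sided exact binomial test, p = 2.49e-14, adjusted p = 2.71e-11). Tested on each replicate alone, a choice made after seeing the data, the adjusted p of the exact test was 8.07e-07 in replicate 2 and 0.00376 in replicate 3, and 1 in replicate 1, whose list was the shortest. When the expected number was taken from the CpG content of the window in place of its length, it rose to 4.45, since Gabbr2 has 13.7 CpGs per kb, and the adjusted p of the exact test was 1.49e-08. Of all protein-coding genes, 14 held more regions than Gabbr2. Among the 789 genes with windows of 200 to 500 kb, the median was 1 region, the 90th percentile was 10 and the highest was 49, and 13 genes, Gabbr2 included, held at least 25. Its partner Gabbr1, which carries the GABA binding site, has a window of 31.6 kb on chromosome 17 and held 0 regions where 0.315 were expected. For so short a window, 0 regions allow a density of up to 95 per Mb (a floor of 3 counts), above the 75.6 per Mb (48.9 to 112) of Gabbr2, so that the levels of the 2 subunit genes could not be told apart at this depth.

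The regions of Gabbr2 were spread along the gene. All 25 lay in introns of the canonical transcript, which has 19 exons. The first was centred 10.4 kb from the gene start and the last 299 kb from it, with gaps of 0.517 to 57.2 kb between neighbouring midpoints and a median gap of 7.17 kb. The first intron, 115 kb long, held 9 regions, the seventh held 4, the second held 3, the third, 11th, 12th and 13th held 2 each and the eighth held 1. The 10 introns without a region were at most 11.5 kb long and summed to 51.8 kb, but introns 8, 11 and 12, which held regions, were also under 10 kb. The widest gap reached from 165 to 222 kb and covered introns 4 to 6. Divided into 5 equal parts from start to end, the gene held 6, 4, 4, 6 and 5 regions. Flanks of the same length as the gene held 5 regions downstream, on a stretch with 8 protein-coding genes, and 3 regions upstream, on a stretch with 3. This is 15.2 and 9.10 regions per Mb beside 75.8 per Mb in the gene body. The 25 regions were 302 to 641 bp long, with a median of 307 bp and 1 to 25 CpGs each. Their fold enrichments, the ratio at the summit over the background that the peak caller took from the input, ran from 2.85 to 4.84. The median was 3.80 in replicate 2 and 3.87 in replicate 3, close to the 3.83 and 3.87 of all regions in protein-coding genes. One region, in intron 2, also overlaps the lncRNA gene Gm32208.

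**Figure D2:**
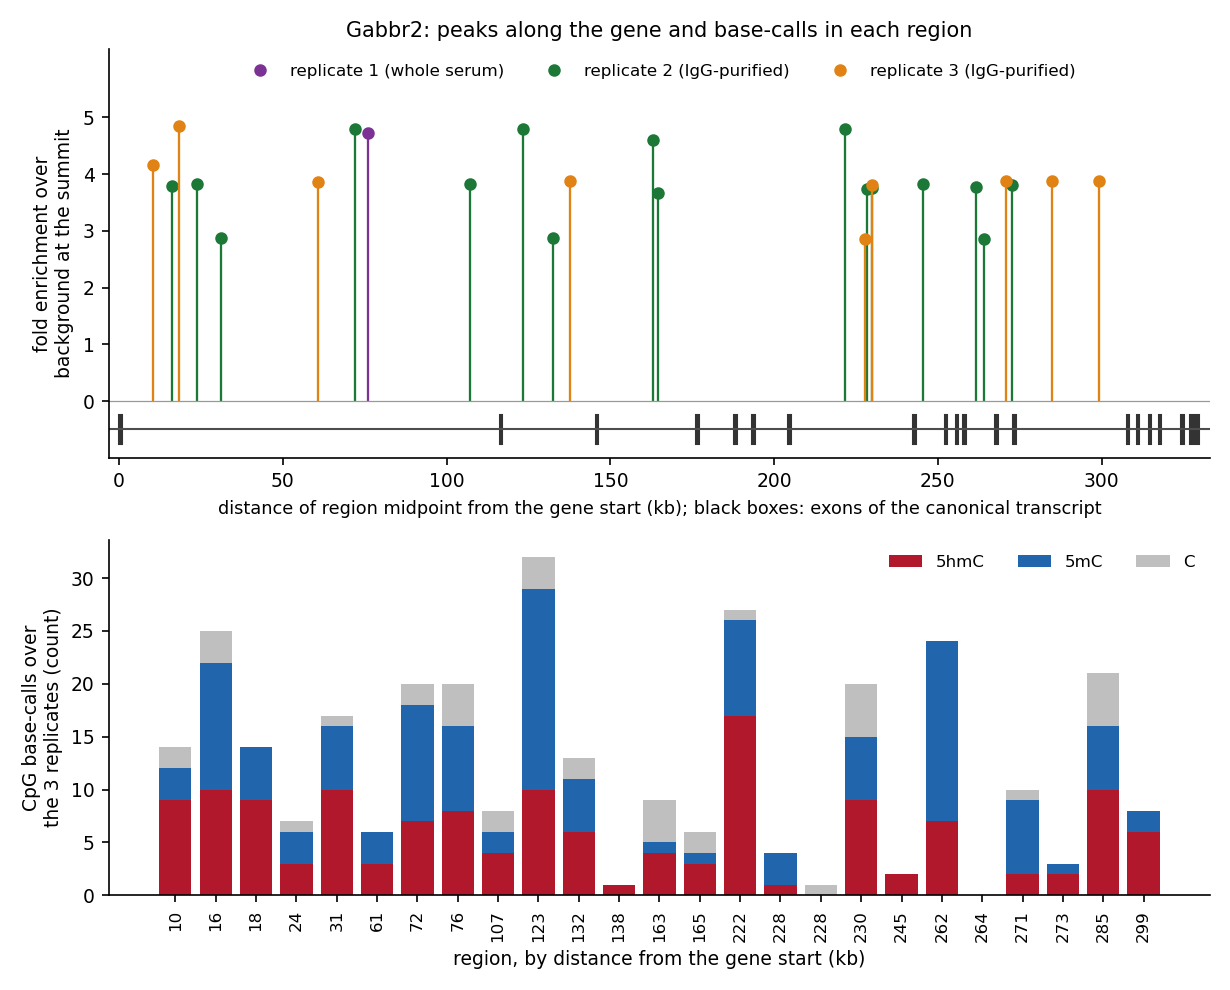
Top, fold enrichment over background of the peaks of each replicate against the distance of the region from the start of Gabbr2 in kb, with exons of the canonical transcript as black boxes. Bottom, number of 5hmC, 5mC and C base-calls summed over the 3 replicates in each of the 25 regions. Regions stand along the gene from 10.4 to 299 kb, and most hold a mixture of 5hmC and 5mC with few C calls.

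Single regions of Gabbr2 differed in their calls. The region with a peak in 2 replicates (chr4:46761997-46762374, intron 7) had fold enrichments of 3.76 in replicate 2 and 3.81 in replicate 3. It had 5hmC in 6 of 14 calls in replicate 2 and in 3 of 6 in replicate 3. The region with the most calls in the 28 genes (chr4:46868394-46868961, intron 2) had 32, all in replicate 2, of which 10 were 5hmC and 19 were 5mC. The regions that follow were singled out after their values were seen. A region in intron 7 (chr4:46770066-46770372) had calls in all replicates. It had a peak in replicate 2 alone, yet replicate 1 read 5hmC in 6 of 9 calls, as replicate 2 did in 7 of 10 and replicate 3 in 4 of 8. Over the gene, 13 regions had calls in more than 1 replicate and 10 had a 5hmC call in more than 1. Near the gene start, in intron 1, 9 of 14 calls were 5hmC in the first region (chr4:46981451-46981752, a peak of replicate 3), and 10 of 25 were 5hmC in the second (chr4:46975564-46975867, a peak of replicate 2). The only peak of replicate 1 in the gene marked the region with the most CpGs, 25 on 641 bp (chr4:46915515-46916155, intron 1), where 5hmC was read in 4 of 9 calls of replicate 1 and 4 of 11 calls of replicate 3. Towards the end of the gene, in intron 13, 10 of 21 calls were 5hmC in one region (chr4:46706713-46707317) and 6 of 8 in the last one (chr4:46692772-46693073), both from replicate 3. A total of 24 regions had a call and 23 had a 5hmC call. In the 13 regions with at least 10 calls over the replicates, 5hmC made up 20 to 64.3% of calls with a median of 45.0%. It was above 5mC in 7 of these, below it in 5 and equal to it in 1.

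Over the 25 regions of Gabbr2, replicate 1 had 38 calls, of which 50.0% were 5hmC (exact binomial 95% interval 33.4 to 66.6%). Replicate 2 had 153 calls with 39.2% of 5hmC (31.4 to 47.4%), and replicate 3 had 121 calls with 52.9% (43.6 to 62.0%). The mean was 47.4 ± 7.21% (SD, n = 3). In regions of all other protein-coding genes, the values were 30.5% of 30549 calls, 32.3% of 74676 and 31.6% of 56074, with a mean of 31.5 ± 0.920% (SD, n = 3). The share in Gabbr2 was thus higher in 3 of 3 replicates, by 19.5, 6.88 and 21.3 percentage points. In replicate 2 its interval reached below the value of the other genes. The other listed genes had at most 1 call per site in replicate 2. The 13 sites with at least 3 calls in that replicate therefore all lay in Gabbr2. At these, 10 of 41 calls (24.4%) were 5hmC, beside 30.6% at such sites of other protein-coding genes, so the difference turned there. Unmodified C was lower in Gabbr2 in 3 of 3 replicates, at 15.8%, 13.1% and 10.7% beside 28.9%, 27.8% and 27.4%, a mean difference of -14.8 ± 1.79 percentage points (SD, n = 3). The share of 5mC was 34.2%, 47.7% and 36.4% beside 40.6%, 39.9% and 41.0%, lower in replicates 1 and 3 and higher in replicate 2. An exact two-sided permutation test of the signs of the paired differences gave p = 0.25 for 5hmC and for C. For 5mC the test gave p = 1. With 3 pairs, 0.25 is the smallest p the test can give, so it could not decide whether these shares differ. The pairs are reactions of 1 animal, and Gabbr2 was singled out as the gene with the most regions. Of 813 genes with at least 50 calls and calls in each replicate, 65, Gabbr2 included, had a mean share of 5hmC at least as high. The quartiles of these genes were 27.3 and 40.5%.

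The calls also cover regions in which a replicate had no peak of its own. At such CpG sites of Gabbr2, replicate 1 read 5hmC in 15 of 29 calls (51.7%, 32.5 to 70.6%). Replicate 2 read it in 2 of 8 calls (25.0%, 3.19 to 65.1%), and replicate 3 in 22 of 43 (51.2%, 35.5 to 66.7%). The same sites of other protein-coding genes gave 31.1%, 31.3% and 34.1%. Replicates 1 and 3 were therefore above the other genes at sites their own peaks had not selected, although the lower bound of each interval was close to the value of the other genes, and replicate 2 had too few calls to compare. In the 28 genes together, 312 of 362 calls (86.2%) came from Gabbr2. The share of 5hmC over all of them was 45.8% of 48 calls, 39.4% of 160 and 44.8% of 154, a mean of 43.3 ± 3.47% (SD, n = 3). For the 27 genes without Gabbr2 the replicates gave 3 of 10, 3 of 7 and 5 of 33 calls, or 30.0%, 42.9% and 15.2%, below the other protein-coding genes in replicates 1 and 3 and above them in replicate 2. The higher share of 5hmC in the 28 genes therefore rests on Gabbr2. At CpG sites with at least 3 calls the mean difference turned from 11.9 to -7.66 percentage points. This value comes from 13 sites of replicate 2 (10 of 41 calls read as 5hmC) and 2 sites of replicate 3 (1 of 6 calls). They hold few of the 362 calls, and whether the share depends on the calls per site was not tested.

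**Figure D3:**
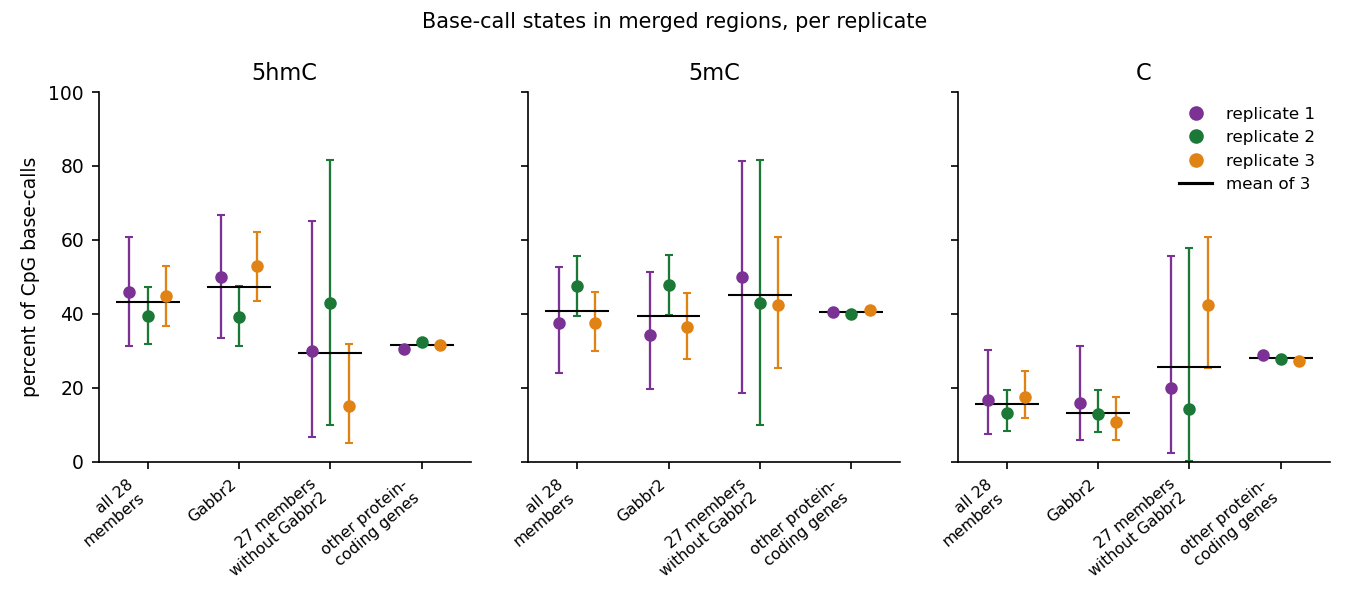
Percent of CpG base-calls that were 5hmC, 5mC or C in merged regions, for each replicate (points, with exact binomial 95% intervals) and as the mean of the 3 replicates (black lines). The 5hmC share of Gabbr2 lies at 50.0%, 39.2% and 52.9%, above the other protein-coding genes in each replicate, and its C share lies below theirs.

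The GABAA receptor genes held few regions. The alpha subunits carry part of the GABA binding site at their border with a beta subunit, and alpha6, encoded by Gabra6, is typical of cerebellar granule cells. The 5 alpha genes Gabra2, Gabra3, Gabra4, Gabra5 and Gabra6 held 0 regions on 0.663 Mb, where 6.62 were expected from length and 3.88 from CpG content, and 0 regions allow up to 4.53 per Mb (floor of 3 counts). None of them passed the test, and the expected number ran from 0.156 for Gabra6, in a window of 15.6 kb, to 2.25 for Gabra3. Of the 2 beta genes, Gabrb2 (chr11:42310493-42523417, forward strand) held 2 regions where 2.14 were expected, both from replicate 3. One of them (chr11:42520255-42520556) lay in the untranslated part of exon 10, 98.6% of the way along the gene, with a fold enrichment of 2.84 and 5hmC in 2 of 6 calls. The other 4 calls were 5mC. Gabrb1, in a window of 505 kb, held 0 regions where 5.04 were expected (exact binomial test, p = 0.0123, adjusted p = 0.322). Over all protein-coding genes, windows over 500 kb held 4.53 regions per Mb, beside 9.99 in all windows.

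Of the gamma, delta and pi subunit genes, Gabrg1 and Gabrd held 1 region each, and Gabrg3 and Gabrp held 0. Gabrg1 (chr5:70906506-70999960, reverse strand) held 1 region where 0.943 were expected, from replicate 2, in intron 1 at 2.56 kb from the gene start, with a fold enrichment of 3.83. That region (chr5:70997248-70997551) contains 0 CpGs and has a GC content of 29.9%, so no base-call could be made in it. Regions with 0 CpGs were 86 of 10729 in protein-coding genes (0.802%). Gabrd (chr4:155469407-155482872, reverse strand), whose delta subunit forms receptors outside synapses on granule cells, held 1 region in a window of 14.5 kb where 0.144 were expected. It lay in intron 1 (chr4:155475324-155475627), had a peak in replicate 2 with a fold enrichment of 3.83, and was covered by 5 calls in replicate 1 alone, of which 1 was 5hmC and 4 were 5mC. Gabrp held 0 regions where 0.292 were expected. Gabrg3 has the longest window of the 28 genes, 672 kb on chromosome 7, and held 0 regions where 6.71 were expected (exact binomial test, p = 0.0028, adjusted p = 0.104). It did not pass the threshold, and the shortest gene called for 0 regions among all protein-coding genes had a window of 786 kb. Its floor of 3 counts allows 4.47 regions per Mb, below the 9.99 per Mb of all genes and close to the 4.53 per Mb of genes over 500 kb.

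The rho subunits form GABA-gated chloride channels that are best known from the retina. Gabrr2 (chr4:33062937-33096126, forward strand) held 2 regions in 34.2 kb where 0.341 were expected (exact binomial test, p = 0.0466, adjusted p = 0.775). The first (chr4:33066101-33066402) had a peak in replicate 3 with a fold enrichment of 2.90, and 1 of its 10 calls was 5hmC. The second (chr4:33068405-33068699) had a peak in replicate 1 with a fold enrichment of 4.72, and 1 of its 3 calls was 5hmC. Both lie in intron 1. Gabrr1 and Gabrr3 held 0 regions where 0.386 and 0.581 were expected.

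Glycine receptors are chloride channels of alpha and beta subunits, and Glrb, the beta subunit, anchors them to the scaffold protein gephyrin. Of these 4 genes Glra1 (chr11:55405064-55499422, reverse strand) held 1 region where 0.952 were expected. The region (chr11:55426196-55426772, intron 4) had a peak in replicate 3 with a fold enrichment of 3.87. It was the one region outside Gabbr2 with calls in all replicates, and replicates 1, 2 and 3 read 5hmC in 1 of 2, 3 of 7 and 0 of 7 calls. Glra2, Glra3 and Glrb held 0 regions where 2.00, 1.91 and 1.35 were expected. Gphn, which encodes gephyrin, held 0 regions in a window of 461 kb where 4.60 were expected (exact binomial test, p = 0.0178, adjusted p = 0.426). Its window is poor in CpG, at 4.85 CpGs per kb, and the expected number from CpG content was 2.19.

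No region was found in the 7 genes that make, load, take up or break down the transmitters. These are Gad1 and Gad2, the decarboxylases, Slc32a1, the vesicular transporter, Slc6a5 and Slc6a9, the glycine transporters of neurons and mainly of glia, Slc6a11, a GABA transporter, and Abat, the GABA transaminase. Together their windows span 0.462 Mb, where 4.61 regions were expected from length and 5.58 from CpG content, and 0 regions allow up to 6.49 per Mb (floor of 3 counts). Single genes were too short to be informative, with 0.133 expected for Slc32a1, 0.499 for Gad1, 0.729 for Gad2 and 1.20 for Slc6a11, the highest of the 7. Of 7 further genes for uptake and breakdown of GABA, taurine or glycine, 3 held regions, as given below.

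How many regions a gene can show depends on its length. Of protein-coding genes with windows up to 20 kb, 9.03% held a region, and this share was 61.5% for windows of 200 to 500 kb and 66.7% above 500 kb. Of the 22 genes with 0 regions, 11 had an expected number under 1, where 0 is the most frequent outcome. The other 11 had windows of 110 to 672 kb. Genes of similar length differed in their counts. Of the 5 genes with windows of 200 to 500 kb Gabbr2 held 25 regions, Gabrb2 held 2 and Gphn, Gabra3 and Glra2 held 0, and in this class 38.5% of all genes held 0. Gabra3 and Glra2 lie on chromosome X, where protein-coding genes held 0.509 regions per Mb (0.329 to 0.751), beside 10.5 per Mb on chromosomes 1 to 19. CpG content also differed. The 28 genes had a median of 8.58 CpGs per kb beside 12.1 over all protein-coding genes. The windows of the 22 genes with 0 regions ran from 3.78 CpGs per kb, in Glra2, to 33.1, in Slc32a1, beside 13.7 in Gabbr2. The part of chromosome and CpG content in the counts was not tested beyond the expected numbers given here.

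**Figure D4:**
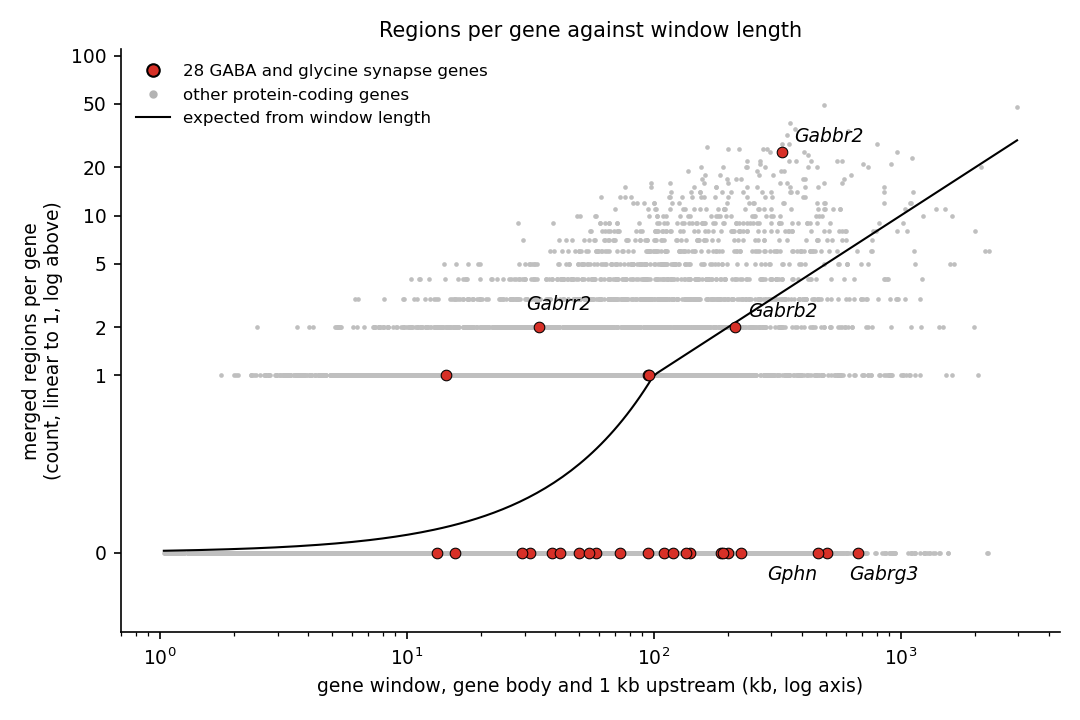
Number of merged regions per gene against the length of the gene window, with the 28 genes in red, other protein-coding genes in grey and the number expected from length as a black line. Both axes are logarithmic, apart from counts below 1, which are linear so that 0 can be shown. Gabbr2, at 331 kb and 25 regions, stands near the upper edge of all genes of its length, while Gphn and Gabrg3 lie at 0.

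Taken over the 32 regions, 31 lay in introns (96.9%) and 1 in an untranslated exon, with 0 in coding exons and 0 in the 1 kb upstream of a gene. Over all 11267 pairs of a region and a protein-coding gene, introns held 80.0%, coding exons 9.54% and the upstream stretch 2.41%, and in genes with windows of 200 to 500 kb introns held 92.6%. A peak in at least 2 replicates was found in 1 of 32 regions (3.13%, exact binomial 95% interval 0.0791 to 16.2%), beside 6.10% of regions in all protein-coding genes. The regions had a median length of 304 bp and a median of 6.5 CpGs, beside 304 bp and 7 CpGs over all protein-coding genes, and a median GC content of 49.0% beside 49.3%. In 2 of 32 regions no replicate had a base-call.

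A list of 26 further genes of the pathway was counted in the same way. Of these, 13 (50.0%) held at least 1 region, beside 20% of all protein-coding genes. Together they held 23, where 26 were expected from length, or 8.83 per Mb (5.60 to 13.3) beside 9.99 per Mb over all windows, and 0 of 26 passed the exact test in either direction. The genes named here were chosen after their values were seen. At an unadjusted p under 0.05, Mdga1 and Slc6a6 held more and Mdga2 held fewer, beside 5.22% and 0.887% of all protein-coding genes, so that 2 of 26 with more was near the background. Mdga1, which encodes a cell surface protein that binds neuroligins, held 6 regions where 1.43 were expected (exact binomial test, adjusted p = 0.125). Slc6a6, the taurine transporter, held 4 where 0.764 were expected (exact binomial test, adjusted p = 0.23), and Mdga2 held 1 where 7.57 were expected (exact binomial test, adjusted p = 0.264). The 7 genes of this list for uptake and breakdown of GABA, taurine or glycine held 6 regions where 2.72 were expected from length. This is 22.0 per Mb (8.08 to 47.9), with 4 regions in Slc6a6 and 1 each in Gldc and Gcsh. The chloride transporter genes Slc12a2 and Slc12a5, which set the chloride gradient on which GABAA receptors act, held 2 regions each. Of the Kctd8, Kctd12 and Kctd16 genes for auxiliary subunits of GABAB receptors, Kctd8 held 1 region where 2.33 were expected and the others held 0. A peak in at least 2 replicates was found in 4 of the 23 regions (17.4%, exact binomial 95% interval 4.95 to 38.8%), beside 6.10% over all protein-coding genes, 1 each in Nlgn2, Shisa7, Mdga2 and Slc12a5.

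The tissue label could not be checked against expression, since the data hold DNA modification. Regions were counted in genes that mark the cell types of the cerebellum. Of 7 granule cell genes, 2 held a region, Grm4 with 12 where 0.999 were expected (exact binomial test, adjusted p = 2.77e-07) and Etv1 with 2. Of 5 Purkinje cell genes, Itpr1 held 3 where 3.39 were expected, and of 5 glial genes, Aldh1l1 held 2. The 4 genes of Golgi cells and molecular layer interneurons held 0 regions on 0.117 Mb, where 1.17 were expected. Slc32a1, Slc6a5 and Gabra6 belong both to these lists and to the 28 genes.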

How the data were processed

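For each hMeDIP replicate of mouse cerebellum the authors base-called the reads with Dorado, aligned them to mm39 with minimap2, called narrow peaks with MACS2 against an untreated input library, and, per the methods, removed peaks on the ENCODE blacklist. The deposited peak lists give the fold enrichment of each peak as a ratio at the summit over the background taken from the input, and its q-value as −log10. The deposited modkit output gives counts of 5hmC, 5mC and C base-calls per CpG, with masked repeats excluded per the methods, and the percent of each modification as the authors derived it. The 98072 distinct CpGs with a call were listed on the forward strand and all fell on a CpG of GRCm39.

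Peaks were merged on chromosomes 1 to 19, X and Y, and the 10729 regions of protein-coding genes gave 11267 pairs of region and gene, because windows overlap. Region counts were compared with the share of a window in all windows (two-sided exact binomial test, Benjamini-Hochberg adjustment over 21757 genes, threshold 0.05). Calls were summed per replicate over the merged regions. Full values are given for genes with the most regions, and single regions for those in most replicates and with the most calls, unless said otherwise. The sequence and base-calls of 1 region chosen by this rule are not reported here. The 28 genes, the gene lists and the settings were chosen with earlier results of these data known. Alternatives covered peak thresholds, merging, the window, CpG content, call minimums and each replicate left out. Functions were tested on simulated data, in Python 3.11.15 with numpy 2.4.6, pandas 2.3.3, scipy 1.17.1 and matplotlib 3.10.9.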

Additional observations from a re-analysis of the deposited data

How the results depend on the processing

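Gabbr2 kept more regions than expected, past the threshold, under every peak threshold, merging, window, CpG and left-out-replicate setting (adjusted p of the exact binomial test from 4.05e-12 to 0.00632, the highest with peaks of at least 4-fold enrichment, 7 regions where 0.690 were expected). These values for Gabbr2 by itself were added after seeing the data, as were single replicates. In replicate 1 alone it held 1 region where 0.125 were expected and did not pass (adjusted p of the exact test = 1). Under the same settings, except single replicates, 1 of the 28 genes was called for more regions and 0 for fewer. The 0 for fewer carries little. In the main setting 0 regions gave an adjusted p of 0.104 in the exact test even in the longest of the 28 windows. Over all protein-coding genes, calls for more and fewer regions fell from 417 and 52 to 70 and 0 with peaks of at least 4-fold enrichment, 270 and 18 with q under 0.01, 260 and 7 by CpG content, 139 and 2 without replicate 2, and 263 and 21 without replicate 3. Peaks of at least 4-fold enrichment gave 8 regions in 2 genes, 1.89 per Mb (2.09 over all protein-coding genes), with 0% in at least 2 replicates. Without Gabbr2 the density was 1.80 per Mb. Leaving out 1 replicate each, the 28 genes held 15 to 30 regions, in 4 to 6 genes, at 3.55 to 7.09 per Mb, with 0 to 3.33% in at least 2 replicates. Without replicate 2 there were 15 regions and without replicate 3 there were 20, and the density over all protein-coding genes was 4.21 and 6.65 per Mb. Merging across gaps of up to 500 bp gave 31 regions, of which 6.45% had a peak in at least 2 replicates. A window of 5 kb upstream added 1 region each at Gabra5 and Gabrr1.

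The higher share of 5hmC depended on Gabbr2, and it was not seen at the few sites with at least 3 calls. Without Gabbr2 the mean share of 5hmC was 29.3% and of C 25.6%, and the mean difference of 5hmC from other protein-coding genes turned to -2.15 percentage points. At CpG sites with at least 3 calls, of which replicate 2 had 13, replicate 3 had 2 and replicate 1 had 0, 5hmC made up 20.5%, C made up 44.1% and the difference was -7.66 points. These means weigh both replicates equally, with C in 2 of 41 calls (4.88%) of replicate 2 and 5 of 6 calls (83.3%) of replicate 3. In the replicates' own peaks 5hmC made up 41.3%, with a difference of 10.8 points, so this share held. There 5mC made up 33.7 ± 15.9% and C 25.0 ± 15.3% (SD, n = 3). These means weigh the 12 calls of replicate 1 equally with the 145 and 111 of replicates 2 and 3. The causes were not tested. Leaving out 1 replicate each gave 42.1 to 45.3% of 5hmC, 37.6 to 42.6% of 5mC, 14.9 to 17.1% of C and a difference of 10.1 to 14.3 points. No CpG of the 28 genes had 5 calls, so that minimum gave no value.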
